A study of Macaca fascicularis with 2 samples.

Results

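PAGE1, PAGE4, XAGE3, FAM9C, SCML1 and LY6K are 6 of the 18446 genes counted in fetal ovary cells of the cynomolgus monkey, Macaca fascicularis. They were chosen by their measured values, because they are among the leading genes of meiotic germ cell clusters in these same cells. Their levels are therefore given here as a description, with no test, and the excess in meiotic cells that chose them is not a finding. What is described is how the 6 genes differ from each other. This covers the steps before and after meiosis, the barcode sets of the table and the somatic cell types. These differences are not free of the choice, since a leading gene of a cluster is one that is lower in other cells.

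Ovaries of 1 fetus at E84 and of 1 fetus at E116 were dissociated whole, each fetus giving 1 library from its pair of ovaries, and no treatment or genetic change was made. Single cells were captured with the droplet-based 10x 3′ v3 chemistry, which tags each RNA molecule with a unique molecular identifier (UMI). The deposited table holds 20967 cells and 148824177 UMIs (median 3756 per cell) with barcodes ending in 1 (10621 cells, median 3130) or in 2 (10346 cells, median 4555.5). No label ties an ending to a stage, so the table was read as 1 pooled sample, the endings serve only as unlabelled sets of barcodes, and neither the stages nor biological replicates could be compared.

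Cancer-testis genes are normally read in germ cells and become active again in many tumours, where their proteins can be seen by the immune system. PAGE1, PAGE4 and XAGE3 belong to the X-linked PAGE, XAGE and GAGE family of small acidic proteins, and PAGE4 is also known from prostate tissue and its tumours. FAM9C is an X-linked relative of SYCP3, a protein of the chromosome axis on which homologs synapse in meiosis. SCML1 is an X-linked Polycomb-like protein with a SAM domain, and LY6K is a membrane-anchored protein of the LY6/uPAR family that is needed for sperm function in mice. In the fetal ovary, germ cells pass from mitotic division through a retinoic acid-responsive premeiotic step into meiotic prophase, and then arrest as oocytes.

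Cells were clustered without the 6 genes and named from marker lists that hold none of them. The ending -like says no more than that. Of 6304 germ cell-like cells, 246 were mitotic-like, 1268 premeiotic-like, 1298 meiotic-like and 664 oocyte-like, and 2828 stayed unnamed. Levels are given as CPM, a gene's UMIs per 1000000 UMIs of the group of cells. Among the markers that gave the names, mitotic-like cells had 209.9 CPM of NANOG against 18.7 or less in later steps, STRA8 at 53.6 CPM in premeiotic-like cells against 2.63 or less elsewhere, SYCP1 at 946 CPM in meiotic-like cells against 43.2 or less, and GDF9 at 372 CPM in oocyte-like cells against 23.7 or less. POU5F1 and ZP3 were not among the genes analysed here. Named somatic cells numbered 10949, in 7 classes.

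All 6 genes were highest in meiotic-like cells, which is how they were chosen. Of 7948 genes with at least 20 CPM in 1 step, 34.8% were highest there. Brackets hold exact 95% Poisson intervals for levels and exact 95% intervals for ratios of counts, and both cover counting error only. Levels are not scaled to transcript length, so each gene is compared with itself.

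PAGE1 stood at 18.7 CPM (14.4–23.9) in mitotic-like, 114.5 (108–121) in premeiotic-like, 562 (546–579) in meiotic-like and 148 (141–156) in oocyte-like cells. LY6K stood at 27.5, 109, 498 (483–513) and 65.0 CPM in the same order. PAGE1 and LY6K were 6.12-fold (4.76–8.0) and 3.98-fold (3.22–4.97) higher in premeiotic-like than in mitotic-like cells. FAM9C (18.7 and 1.17 CPM) and SCML1 (24.5 and 6.43 CPM) were also higher in premeiotic-like than in mitotic-like cells. Pooled over both sets, oocyte-like over premeiotic-like cells was 1.30-fold (1.20–1.40) for PAGE1 and 0.594-fold (0.540–0.653) for LY6K. Within barcodes ending in 2, which hold 643 of the 664 oocyte-like cells, it was 1.73-fold (1.54–1.95) for PAGE1 and 0.695-fold (0.613–0.789) for LY6K. The 21 oocyte-like cells ending in 1 gave another picture, with both genes above the premeiotic-like level, at 3.62-fold (2.94–4.41) for PAGE1 and 1.63-fold (1.18–2.21) for LY6K.

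FAM9C stood at 1.17 CPM in mitotic-like, 18.7 in premeiotic-like, 168 (159–177) in meiotic-like and 21.6 in oocyte-like cells. Its ratio of premeiotic-like to mitotic-like cells was 16.0-fold, with a wide interval of 6.14 to 59.3, since mitotic-like cells held only 4 of its UMIs. For FAM9C the pooled ratio of oocyte-like to premeiotic-like cells was 1.16 (0.95–1.41), with an interval of 0.786 to 1.30 in barcodes ending in 2 and a ratio of 3.96 (2.13–6.86) in barcodes ending in 1. SCML1 stood at 6.43, 24.5, 406 (392–420) and 23.8 CPM, and its premeiotic-like and oocyte-like levels were not told apart by counting error in the pooled cells, at a ratio of 0.969 (0.811–1.16), nor in either set.

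In the pooled cells PAGE4 and XAGE3 were low in every named step but meiosis. PAGE4 stood at 2.05, 2.73, 62.2 (57.0–67.8) and 2.91 CPM, and XAGE3 at 2.34, 2.93, 76.4 (70.5–82.6) and 2.27 CPM from mitotic-like to oocyte-like cells. Premeiotic-like over mitotic-like was 1.33-fold (0.566–3.62) for PAGE4 and 1.25-fold (0.559–3.17) for XAGE3, and oocyte-like over premeiotic-like 1.07-fold (0.618–1.85) and 0.775-fold (0.435–1.37). The pooled values do not order the steps outside meiosis for these genes, and they mix step and barcode set. Among barcodes ending in 1, XAGE3 stood at 50.0 CPM (25.0–89.5, 11 UMIs in 21 cells) in oocyte-like cells, 9.51-fold (4.28–19.6) the premeiotic-like level of 5.26 CPM. PAGE4 had 2 UMIs in those 21 cells. In barcodes ending in 2, oocyte-like cells had 2.78 CPM (1.88–3.97) of PAGE4 and 1.30 CPM (0.709–2.18) of XAGE3, and premeiotic-like cells had no UMI of either, which allows up to 0.683 CPM.

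**Figure D1:**
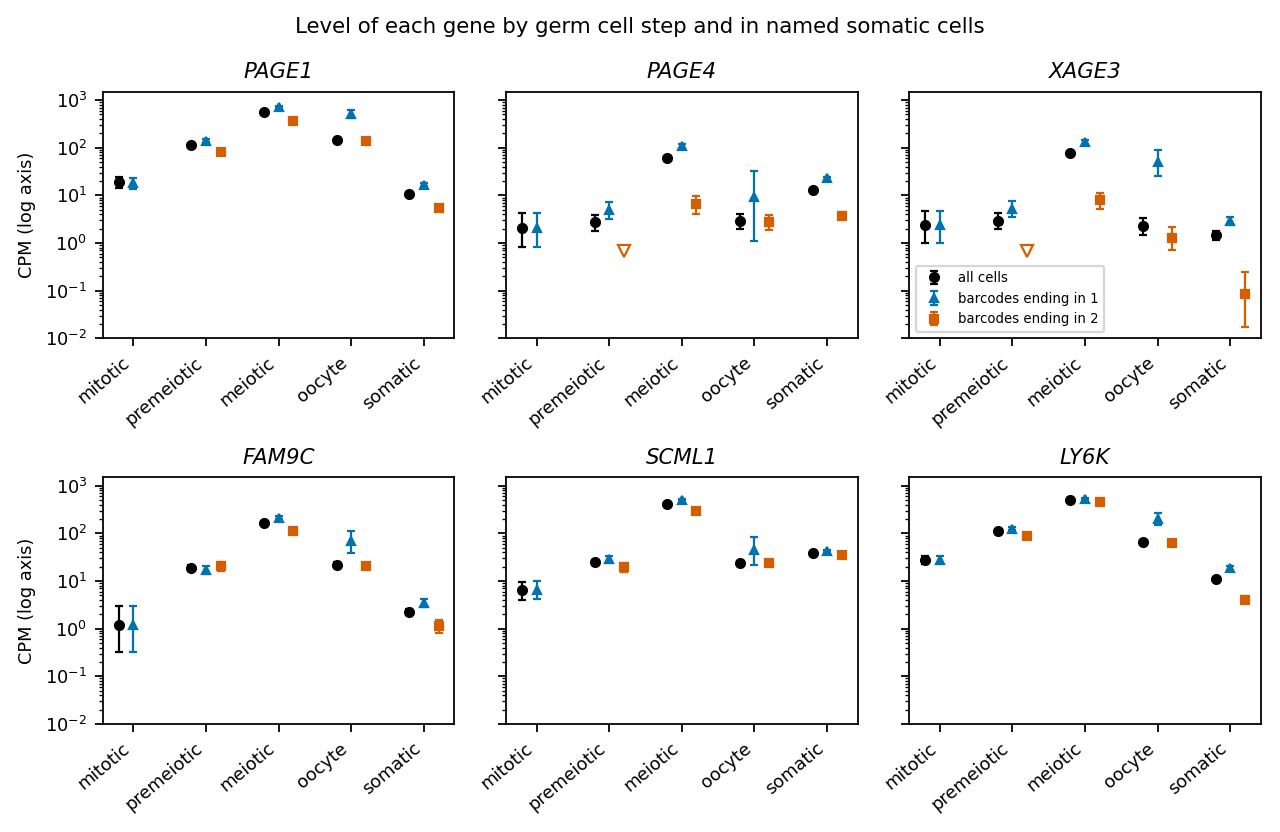
Level of each gene in CPM on a log axis, by germ cell step and in named somatic cells, for all cells (circles), barcodes ending in 1 (triangles) and barcodes ending in 2 (squares), with 95% Poisson intervals as bars. All 6 genes peak in meiotic-like cells, PAGE4 and XAGE3 lie between 2.05 and 2.93 in the other steps when all cells are pooled (XAGE3 at 50.0 in the 21 oocyte-like cells ending in 1), and open triangles mark the limit that 3 counts allow where no UMI was found (0.683 in premeiotic-like cells ending in 2). Groups under 20 cells are not drawn.

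Mitotic-like cells came almost wholly from 1 barcode set (243 of 246 with barcodes ending in 1), and there the 6 genes were near or under their level in somatic cells of the same set. PAGE1 stood at 18.1 CPM (13.9–23.3) in these mitotic-like cells and 16.8 (15.4–18.2) in named somatic cells. XAGE3 stood at 2.38 and 2.92 CPM, with overlapping intervals, and FAM9C at 1.19 (0.324–3.04) and 3.48 (2.88–4.17) CPM. LY6K alone was higher in the mitotic-like cells, at 27.9 (22.6–34.2) against 18.7 (17.3–20.3) CPM. SCML1 at 6.53 against 43.4 CPM and PAGE4 at 2.08 against 22.7 CPM were lower than in somatic cells.

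Set against the 2178 other named germ cells, the meiotic-like level was 4.83-fold (4.61–5.06) for PAGE1, 6.40-fold (6.06–6.76) for LY6K, 9.57-fold (8.58–10.7) for FAM9C, 18.7-fold (17.1–20.6) for SCML1, 22.9-fold (17.7–30.1) for PAGE4 and 30.0-fold (23.1–39.6) for XAGE3. With 10 CPM added to both levels, which holds back genes of few counts, all 6 lay past a log2 ratio of 2 in this direction. Of all genes tested 1.04% did (83 genes), and 1.43% lay as far in the other direction. The members took ranks 4 (SCML1, log2 3.72), 20 (XAGE3), 25 (FAM9C), 37 (LY6K), 38 (PAGE4) and 67 (PAGE1, log2 2.18) of 7948. These ranks restate the choice of the genes and nothing is read from them.

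The fold depended on the barcode set for some members. Within barcodes ending in 1 and in 2, meiotic-like over other named germ cells was 27.1-fold and 3.30-fold for PAGE4, 25.0-fold and 8.54-fold for XAGE3, 17.2-fold and 5.34-fold for FAM9C, and 6.94-fold and 2.93-fold for PAGE1. SCML1 (23.9-fold and 13.1-fold) and LY6K (5.84-fold and 6.51-fold) held closer. In barcodes ending in 2, SCML1 and LY6K passed a log2 ratio of 2 (3.22 and 2.54), and FAM9C (1.97), PAGE1 (1.48), XAGE3 (0.71) and PAGE4 (0.46) did not. XAGE3 and PAGE4 stood at 7.85 and 6.50 CPM in these meiotic-like cells. With 10 CPM added they could not pass 2, whatever their level in other germ cells.

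From meiotic-like to oocyte-like cells, 5 of the 6 genes were lower past a log2 ratio of 2 in the pooled cells, beside 2.47% of all genes tested. The genes were chosen for their excess in meiotic cells, so this drop follows from the choice and the count is no result. The pooled meiotic-like level was 33.6-fold the oocyte-like level for XAGE3, 21.4-fold for PAGE4, 17.1-fold for SCML1, 7.77-fold for FAM9C and 7.66-fold for LY6K. PAGE1 was the exception at 3.79-fold, a log2 of 1.85. It made up 31.7% of the summed UMIs of the 6 genes in meiotic-like cells and 56.2% in oocyte-like cells, where the sum was 1772 and 264 CPM. Most meiotic-like cells (1066 of 1298) have barcodes ending in 1 and most oocyte-like cells barcodes ending in 2, so for the pooled values the step and the barcode set are mixed. Within barcodes ending in 2 the levels in meiotic-like and oocyte-like cells were 362 and 141 CPM for PAGE1, 454 and 62.2 for LY6K, 110 and 20.7 for FAM9C, 290 and 23.3 for SCML1, 6.50 and 2.78 for PAGE4, and 7.85 and 1.30 for XAGE3. There SCML1 (log2 3.17) and LY6K (2.69) passed 2, and FAM9C (1.96), PAGE1 (1.30), XAGE3 (0.66) and PAGE4 (0.37) did not. At 7.85 and 6.50 CPM, XAGE3 and PAGE4 could not pass 2 here with 10 CPM added, whatever their oocyte-like level. The pooled count of 5 therefore cannot be set against this set for these genes. With the 21 oocyte-like cells ending in 1 the meiotic-like level was 2.63-fold (1.46–5.31) the oocyte-like one for XAGE3, in place of 33.6-fold pooled, and PAGE4 (log2 2.62) and SCML1 (3.20) passed 2.

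The meiotic-like cells lay in 2 sub-clusters, of which 1 was shallow (sub-cluster 1, 867 cells, median 1759 UMIs, 829 with barcodes ending in 1) and 1 deep (sub-cluster 5, 431 cells, median 13503 UMIs). The pooled level of all 6 genes was higher in the shallow sub-cluster. PAGE1 stood at 805 and 479 CPM, PAGE4 at 111 and 45.6, XAGE3 at 125 and 59.7, FAM9C at 244 and 142, SCML1 at 538 and 361, and LY6K at 566 and 475. The barcode sets are spread unevenly over these sub-clusters, and within a set the ratios of shallow to deep were smaller. They were, in barcodes ending in 1, 1.04 (0.884–1.23) for XAGE3 and 1.21 for PAGE4, against 2.10 and 2.44 pooled, and between 1.16 and 1.33 for the other 4 genes. In barcodes ending in 2, with only 38 shallow cells, the ratio was 0.844 (0.615–1.13) for PAGE1 and 0.819 (0.616–1.07) for LY6K, and XAGE3 had 0 UMIs in the shallow cells against 29 in the deep ones. HBB was among the leading genes of the shallow sub-cluster, as it was in the unnamed germ sub-clusters 0 and 2. The parts of depth and of RNA from other cells were not tested.

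Single meiotic-like cells differed in how many of the 6 genes had a UMI, and 3 was the most common number. With each cell thinned to 5000 UMIs and shallower cells left out, 4 or more of the genes had a UMI in 180 of 454 meiotic-like cells (39.6%), 11 of 571 premeiotic-like, 5 of 285 oocyte-like, 0 of 235 mitotic-like (which allows up to 1.28%) and 9 of 4375 named somatic cells. All 6 were found in 21 meiotic-like cells and in 0 of the named somatic cells (up to 0.0686%), and 9 meiotic-like cells (1.98%) had none. Among premeiotic-like cells 286 had none and 174 had 1. The higher number in meiotic-like cells follows from the choice of the genes. A gene without a UMI at this depth may still be present, and both barcode sets are pooled here. How much of the spread between cells is sampling of UMIs was not tested.

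**Figure D2:**
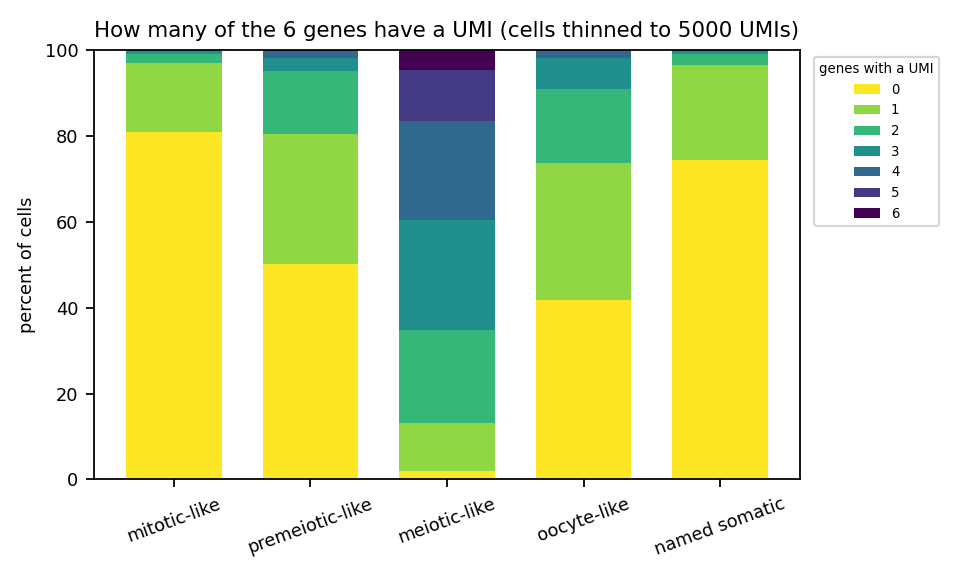
Percent of cells, each thinned to 5000 UMIs, by the number of the 6 genes with at least 1 UMI, for each named germ cell step and for named somatic cells. Meiotic-like cells centre on 3 genes (116 of 454 cells), while 190 of 235 mitotic-like cells have none.

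Thinned to 1000 UMIs, PAGE1 had a UMI in 43.3% of 1193 meiotic-like cells, LY6K in 38.1%, SCML1 in 31.2%, FAM9C in 17.1%, and PAGE4 and XAGE3 in 9.56% each. The shares in 9857 named somatic cells were 1.46% for PAGE1, 1.33% for LY6K, 3.83% for SCML1, 0.254% for FAM9C, 1.97% for PAGE4 and 0.152% for XAGE3. Thinning left out 105 meiotic-like and 1092 somatic cells. Before it, 68.6% of meiotic-like and 5.54% of named somatic cells had a PAGE1 UMI, at median depths of 2679.5 and 4105 UMIs. In erythroid-like cells, in which these germ cell genes would not be looked for, 0.613% had a PAGE1 UMI, 1.07% a LY6K UMI, 1.23% an SCML1 UMI and none of 652 an XAGE3 UMI at 1000 UMIs, which allows a share of up to 0.46%.

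Within meiotic-like cells the genes did not follow 1 course. FIGLA, the transcription factor that switches on zona pellucida genes in the oocyte, was used after the data were seen to part the 454 cells of at least 5000 UMIs, again thinned to 5000, into 317 with no FIGLA UMI, 101 with 1 or 2 and 36 with 3 or more. SCML1 stood at 492 (458–528), 331 (282–385) and 150.0 (98.9–218) CPM over these bins, and FAM9C at 206 (184–229), 150.5 (119–188) and 55.6 (26.6–102) CPM. Both were lower where FIGLA was higher, as was DMC1, the recombinase of meiotic strand exchange, at 78.2, 31.7 and 5.56 CPM. LY6K stood at 532 (497–570), 576 (512–646) and 433 (343–541) CPM, with overlapping intervals between neighbouring bins of the pooled cells.

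The barcode sets are unevenly spread over these bins (205, 43 and 9 cells ending in 1, and 112, 58 and 27 ending in 2), so each was read alone. SCML1 stood at 545 and 433 CPM in the first bins of barcodes ending in 1, and at 395, 255 and 185 CPM in barcodes ending in 2. The last bin of barcodes ending in 1 holds only 9 cells, with 2 SCML1 UMIs (44.4 CPM). FAM9C stood at 247 and 219 CPM, and at 130, 100.0 and 51.9 CPM. Within a set the intervals of neighbouring bins overlapped for both genes, apart from the first pair of SCML1 ending in 2 (344–450.3 and 200.4–320.4) and its last pair ending in 1. PAGE1 showed no such order within a set, at 712 and 595 CPM ending in 1 and at 329, 372 and 319 CPM ending in 2, while its pooled values were 577, 467 and 422 CPM. LY6K stood at 569 and 521 CPM ending in 1, with overlapping intervals, and at 466 (411–526), 617 (530–715) and 378 (281–497) CPM ending in 2, where the middle bin lay above both others. For PAGE4 and XAGE3, barcodes ending in 1 gave 110 and 107 CPM and 133 and 121 CPM in the first bins, and barcodes ending in 2 gave at most 10.7 CPM in any bin.

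**Figure D3:**
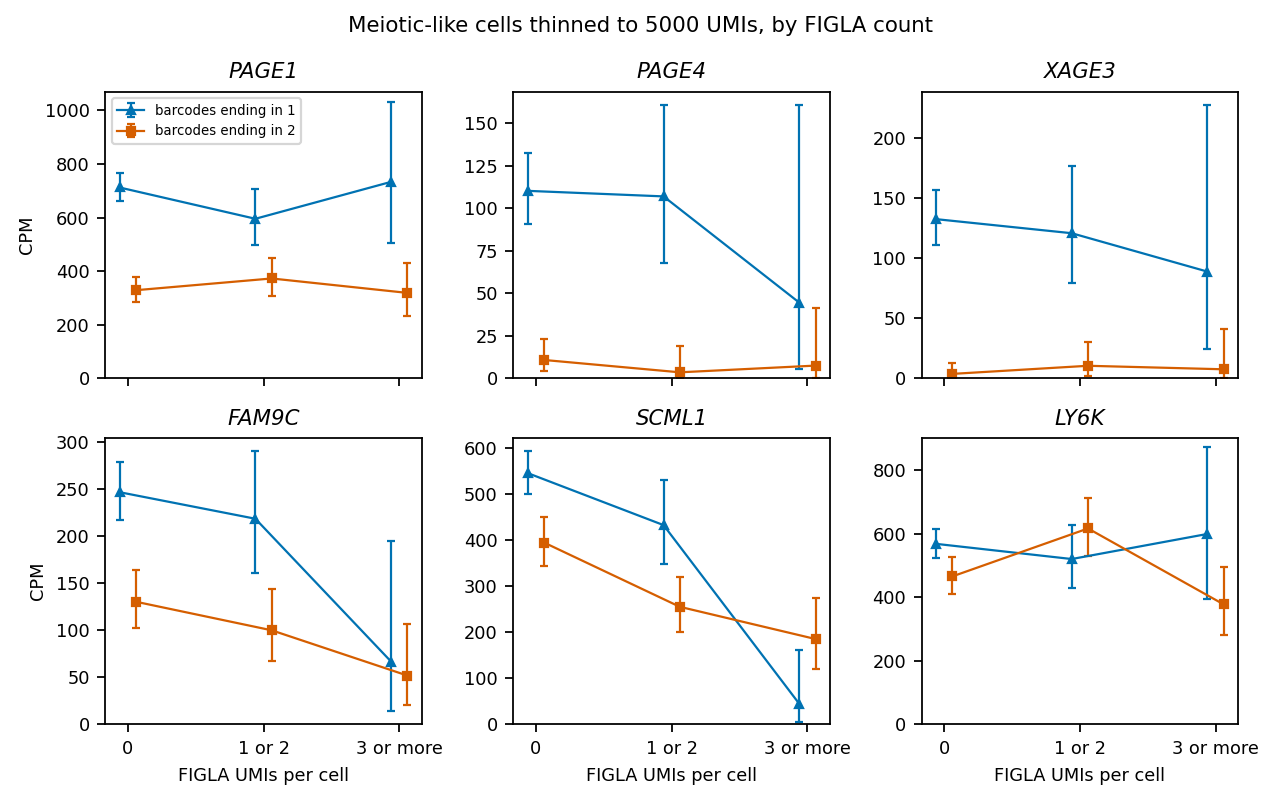
Level in CPM of the 6 genes in meiotic-like cells of at least 5000 UMIs, thinned to 5000, by the number of FIGLA UMIs, with 95% Poisson intervals as bars and the barcode endings apart. SCML1 and FAM9C have lower values with more FIGLA in both sets (SCML1 from 395 to 185 ending in 2), PAGE1 and LY6K show no steady order within a set (LY6K ending in 2 is highest in the middle bin), and PAGE4 and XAGE3 are separated by the ending instead.

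The 6 genes also split between the barcode sets, a comparison that was added with the values in view. It is not free of the choice of the genes. SCML1, XAGE3, PAGE4 and FAM9C are among the leading genes of sub-cluster 1, where 829 of 867 cells end in 1. Choosing such genes can favour those that are higher in that set. In meiotic-like cells XAGE3 stood at 132 CPM (122–143) in the 1066 cells with barcodes ending in 1 and at 7.85 (5.26–11.3) in the 232 ending in 2, 16.8-fold apart (11.6–25.3). PAGE4 stood at 107 (98.0–117) and 6.50 (4.16–9.66) CPM, 16.5-fold apart (11–26). The other members were much closer, at 2.00-fold (1.87–2.13) for PAGE1, 1.96-fold (1.75–2.21) for FAM9C, 1.72-fold (1.60–1.85) for SCML1 and 1.17-fold (1.10–1.25) for LY6K.

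Among 3953 genes with at least 50 CPM in 1 of the sets, XAGE3 ranked 2 (log2 2.99 with 10 CPM added) and PAGE4 came next (log2 2.83), where 0.253% lay past 2 (10 genes) and the median of all genes was -0.03. The gene at the first place, ENSMFAG00000033540, has no symbol in the table and was also read in somatic cells (207 CPM). The one behind PAGE4, ENSMFAG00000041266, stood at 209 and 23.5 CPM, and its level over the cell groups was among those most like XAGE3 and PAGE4. HIST1H2BA, a histone H2B of germ cells, was also among the 10, at 141 and 27.3 CPM. So were genes read widely in somatic cells. These were ND6 (367 and 54.1 CPM), KISS1 (73.15 and 5.68) and ENSMFAG00000036388 (1976 and 434). Their levels in named somatic cells were 227, 678 and 3051 CPM.

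The split was nearly as wide within the deep sub-cluster 5. There 237 cells end in 1 (median 10355 UMIs) and 194 in 2 (median 18215.5). XAGE3 stood at 130 and 8.18 CPM there (15.8-fold, 10.8–24.0) and PAGE4 at 98.6 and 6.49 CPM (15.2-fold, 9.91–24.4), ranks 2 and 4 of 4028 genes, of which 0.248% lay past 2. PAGE1 stood at 635 and 365 CPM (1.74-fold), FAM9C at 189 and 107, SCML1 at 457 and 290, and LY6K at 498 and 458 (1.09-fold). In cells with no FIGLA UMI, XAGE3 was at 133 CPM ending in 1 and 3.57 (0.433–12.9) ending in 2.

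**Figure D4:**
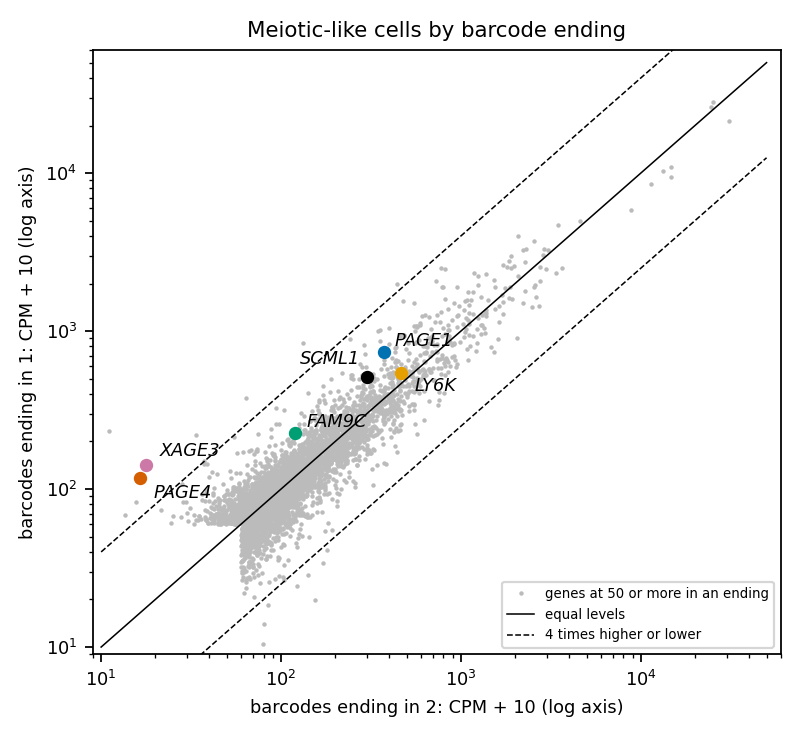
Level of each gene in meiotic-like cells with barcodes ending in 1 against barcodes ending in 2, in CPM with 10 added, on log axes, for genes (grey) with at least 50 in 1 of the sets and the 6 genes (coloured). XAGE3 and PAGE4 lie far above the diagonal (16.8-fold and 16.5-fold before the addition), and LY6K lies near it (1.17-fold).

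The meiotic-like cells of both sets held the meiotic machinery, in unequal measure. SYCP2 stood at 1158 and 1090 CPM and SYCP3 at 2215 and 2067 CPM in barcodes ending in 1 and in 2, while SYCP1 was at 737 and 1204 CPM. DMC1 (84.3 and 28.1 CPM), PRDM9, the methyltransferase that marks recombination hotspots (49.5 and 14.3), MEIOB (580 and 288) and SYCE3 of the synaptonemal complex (2471 and 807) were higher in barcodes ending in 1. SPO11, which makes the meiotic double-strand breaks, was higher in barcodes ending in 2 (94.2 and 165 CPM), as was FIGLA (74.5 and 194 CPM). These values move with the split of XAGE3 and PAGE4 and their part in it was not tested. Whether an ending is a stage, a fetus or a library run cannot be told apart.

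PAGE4 was also read outside the germ line. Of its 1662 UMIs 53.9% lay in named somatic cells and 43.7% in germ cell-like cells, while germ cell-like cells held 88.6% to 91.5% of the UMIs of PAGE1, XAGE3, FAM9C and LY6K. Among somatic classes PAGE4 stood at 34.0 CPM in stroma-like, 4.17 in granulosa-like, 2.90 in erythroid-like, 1.84 in macrophage-like, 1.11 in endothelial-like and 0.358 in surface epithelium-like cells. Pericyte-like cells held no PAGE4 UMI, which allows up to 4.00 CPM. Within the stroma-like cells it stood at 83.3 CPM (77.1–89.9, 1899 cells) in the cluster led by POSTN and LUM. The cluster led by C7 and SPON2 (2467 cells) had 7.90 CPM. Cluster and barcode set are mixed in this difference.

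These stroma clusters part by barcode set as well, with 1843 of the 1899 POSTN and LUM cells ending in 1 and 2457 of the 2467 C7 and SPON2 cells ending in 2. Stroma-like PAGE4 therefore stood at 83.9 CPM (77.6–90.6) in barcodes ending in 1 and 8.22 (6.85–9.80) in barcodes ending in 2, 10.2-fold apart (8.42–12.5). Within the POSTN and LUM cluster the 56 cells ending in 2 gave 6 UMIs, or 38.2 CPM (14.0–83.1), beside 84.2 CPM in those ending in 1. In an unnamed cluster led by UBD and INSL3 with stroma markers the values were 77.1 CPM (52.8–109, 78 cells) and 1.77 CPM (0.366–5.19, 120 cells). The difference between the sets was thus seen in germ cells and in stroma for PAGE4.

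Stroma RNA in the meiotic-like cells was measured beside it. All 8 stroma markers had UMIs in meiotic-like cells, 7 of the 8 were higher in barcodes ending in 1, and their summed level was 520 CPM ending in 1 and 166 ending in 2, which is 2.17% and 0.858% of the sum in stroma-like cells of the same set. In sub-cluster 5 the shares were 0.998% and 0.845%. PAGE4 itself was higher in meiotic-like (98.0–117) than in stroma-like cells (77.6–90.6) of barcodes ending in 1. The part of stroma RNA in the PAGE4 level of meiotic-like cells, and in its split between the sets, was not tested.

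SCML1 was the other gene read widely in somatic cells, with 51.8% of its 9335 UMIs in germ cell-like cells. It stood at 48.5 CPM in granulosa-like, 46.8 in endothelial-like, 41.0 in stroma-like, 29.2 in surface epithelium-like, 18.4 in macrophage-like and 7.13 in erythroid-like cells, and was higher still in pericyte-like cells (66.7) and in an unnamed cluster led by CBLN2 and LYPD1 (79.1, 73.6–84.9). Mitotic-like germ cells, at 6.43 CPM (4.03–9.74), were thus near erythroid-like cells (4.70–10.4) and below the other named somatic classes, and premeiotic-like cells, at 24.5 CPM, were below granulosa-like, endothelial-like, stroma-like and pericyte-like cells. SCML1 made up 50.5% of the summed UMIs of the 6 genes in named somatic cells and 22.9% in meiotic-like cells. PAGE4 made up 16.5% and 3.51%, with 36.7% in stroma-like cells.

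The other 4 genes had a somatic level that was a small share of their germ cell level in the same barcode set. In barcodes ending in 1 the level in named somatic cells was 8.04% (7.36–8.77) of the level over all germ cell-like cells for PAGE1, 9.53% (7.64–11.8) for XAGE3, 6.83% (5.60–8.25) for FAM9C and 11.4% (10.4–12.4) for LY6K. In barcodes ending in 2 it was 3.37% (2.90–3.90), 3.70% (0.740–11.4), 3.33% (2.36–4.57) and 2.95% (2.48–3.49). SCML1 at 36.8% (34.6–39.2) and 50.1% (46.6–53.8) and PAGE4 at 87.9% (79.1–97.6) and 159% (117–220) stood apart from them in both sets. LY6K lay above PAGE1 and FAM9C in barcodes ending in 1, and in barcodes ending in 2 the intervals of the 4 genes overlapped. In erythroid-like cells SCML1 was at 6.77% and 6.21%, where LY6K was at 6.93% and 7.27%. Droplets also take up RNA set free by other cells, and its part in the low somatic levels was not tested.

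**Figure D5:**
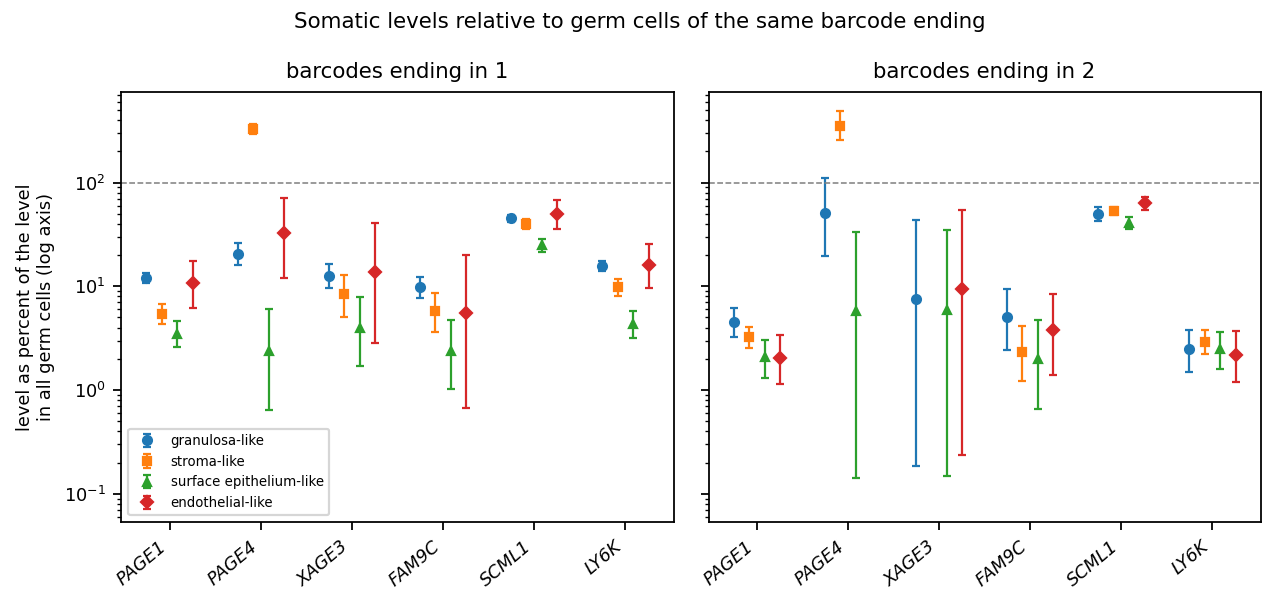
Level of each gene in 4 somatic classes as a percent of its level over all germ cell-like cells of the same barcode ending, on a log axis with 95% intervals as bars and a dashed line at 100%. PAGE1, XAGE3, FAM9C and LY6K lie low in every class, SCML1 is higher in all 4 classes and PAGE4 exceeds 100% in stroma-like cells (325% and 350.2%), and classes with no UMI are not drawn.

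Over named somatic cells the meiotic-like level was 74.2-fold (62.9–88.1) for FAM9C, 52.5-fold (42.5–65.4) for XAGE3, 51.7-fold (47.9–55.9) for PAGE1, 44.6-fold (41.3–48.2) for LY6K, 10.3-fold (9.77–10.8) for SCML1 and 4.82-fold (4.31–5.38) for PAGE4. With 10 CPM added, 5 of the 6 passed a log2 ratio of 2 and PAGE4 did not (1.66). Of all genes tested 6.34% passed. Genes that lead meiotic clusters are high over other cells, somatic cells among them, so this excess follows from the choice and the count is no result. In barcodes ending in 2 XAGE3 (0.82) and PAGE4 (0.26) were under 2. For XAGE3 this comes from the 10 CPM added to a level of 7.85 CPM, since its ratio there without the addition was 93.6-fold (29.0–480), on 3 somatic UMIs.

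The relatives of the 6 genes show how far each family shares the pattern. Of 15 PAGE, XAGE and GAGE genes listed, 5 were in the table. XAGE5 was also highest in meiotic-like cells, at 23.1 CPM against 8.38 in other named germ cells (log2 0.85), and PAGE3 had 0.484 CPM. In the FAM9 family, FAM9A stood at 215 CPM in meiotic-like and 103 in premeiotic-like cells, FAM9B at 88.9 and 39.0 CPM, and SYCP3 at 2149 and 391 CPM, so FAM9A and FAM9B had a lead already before meiosis. They were at 45.9 and 24.0 CPM in mitotic-like cells, where FAM9C was at 1.17 CPM.

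Of the SCML, MBT and related Polycomb genes listed, 8 passed the level filter. SCML1 was chosen for its excess in meiotic-like cells, so its place above its 7 relatives, none of which passed a log2 ratio of 2, is no result (1.04% of all genes passed). SCML2 stood at 219 CPM in meiotic-like and 200.1 in premeiotic-like cells, and SCMH1 at 45.5 and 23.4 CPM. PHC1 (39.6 and 30.8), PHC2 (20.7 and 29.8), SFMBT1 (44.8 and 32.8), L3MBTL2 (24.0 and 38.7) and L3MBTL3 (51.9 and 27.9) lay under that ratio. SCML4, SFMBT2, L3MBTL4 and PHC3 stayed under 20 CPM in every step.

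Of the LY6/uPAR genes 7 passed the level filter, with LY6K again chosen for its excess. None of its 6 relatives was higher past 2 and LYPD1 was lower (1.43% of all genes tested were), at log2 -2.48 (2.30 CPM in meiotic-like against 58.8 in other named germ cells). LY6E, read in many cell types, stood at 23.7 CPM in meiotic-like, 250 in mitotic-like and 429.7 in named somatic cells. TEX101, a germ cell protein of the same family, reached 25.4 CPM in meiotic-like cells against 1.68 in the other named germ cells (log2 1.60). CD59 (74.3 and 96.5 CPM), LYPD6 (10.8 and 16.7) and LYPD6B (5.08 and 12.1) were lower there. The other 16 genes of the family in the table did not reach 20 CPM in any step, and among them GML (18.6 against 0.945 CPM) and LYPD4 (10.3 against 0.575) had most of their germ cell level in meiotic-like cells. The rest were LY6D, LY6H, LY6L, LY6G6C, LY6G5C, SLURP1, LYNX1, LYPD2, LYPD3, LYPD5, LYPD8, PATE2, PATE3 and PATE4.

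Of the other cancer-testis genes that passed the level filter, most were highest in the same step. Of 174 listed genes, 100 were in the table and 54 passed the level filter. Of these, 34 (63.0%) were highest in meiotic-like cells, where 34.8% of all genes tested were, and 13 in oocyte-like cells. Some of the 34, such as XAGE5, FMR1NB, CAGE1 and TEX101, passed the filter only through meiotic-like cells and so had to be highest there. The same filter was used for all genes tested. The list was drawn up with earlier results of these data known, so these shares are a description only. A log2 ratio past 2 over other named germ cells was reached by 3 of the 54 (1.04% of all genes tested), FMR1NB (167 against 12.1 CPM, log2 3.0), HORMAD1 (502 against 70.8, log2 2.66) and TEX15 (279 against 56.0, log2 2.13). HORMAD1 is a protein of the meiotic chromosome axis and TEX15 is needed for meiosis in male mice. The median of the 54 was 0.86, beside 0.01 for all genes tested. NLRP4, an NLR family gene of oocytes, was lower: it had no UMI in meiotic-like cells, which allows up to 0.363 CPM, and 79.6 CPM in oocyte-like cells.

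Likeness was measured as Pearson's r of log2(CPM + 10) over 19 groups, the 12 germ sub-clusters and 7 named somatic classes, among 6895 genes with at least 50 CPM in 1 group. The groups share libraries and differ in depth, so r is a description. PAGE1 and LY6K were most like each other (0.982), followed by ADAD1 (0.977) for PAGE1 and FAM3B (0.979) for LY6K. XAGE3 was most like ENSMFAG00000041266 (0.976), CNTD1 (0.965) and DMC1 (0.957), and PAGE4 was most like XAGE3 (0.893), ENSMFAG00000041266 (0.869) and FBXO47 (0.850). FAM9C was most like FMR1NB (0.980), C14orf39 (0.978), a synaptonemal complex gene, and INCA1 (0.971). SCML1 was most like MED14 (0.921), FAM200B (0.915) and LCA5L (0.901).

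Over the 14 somatic clusters alone, which were looked at once the values were known, PAGE4 was most like RSPO3 (0.976), SPON1 (0.963) and ASPN (0.928), all secreted proteins. SCML1 was most like ARHGAP32 (0.932), LAMB2 (0.908) and RABGAP1 (0.899). The stroma clusters among them part by barcode set, so r here mixes cluster and set and is a description only.

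PAGE1 and PAGE4 lie next to each other in the RefSeq annotation of the species (assembly T2T-MFA8v1.1, another build than the study's, so no positions are given). Their neighbours on the far side of PAGE4, USP27X, CLCN5 and AKAP4, stood at 0.363, 10.8 and 8.47 CPM in meiotic-like cells. The adjacent pair thus differed in the premeiotic step, in stroma and between the barcode sets (1.74-fold against 15.2-fold in sub-cluster 5). Beside SCML1 lie BEND2, at 21.8 CPM in meiotic-like and 2.47 in other named germ cells, and SCML2.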

How the data were processed

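Ovary cells of 1 fetus per stage were profiled with 10x 3′ v3. The authors aligned reads with Cell Ranger 3.0.2 (per the labels) to Macaca_fascicularis_5.0 and deposited a table of whole-number UMI counts per gene and cell for both libraries together, with no map from barcodes to stages. Cells are not replicates, so no test was run. The study's limit of 200 to 3000 genes per cell was an alternative, and 4675 cells (22.3%) over 3000 genes were kept. No per-sample column was left unused (0).

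The 6 genes and all lists were chosen with earlier results of these data known. Cells were clustered with Seurat 5.3.0 (R 4.3.3, Matrix 1.6.5) on 2000 variable genes without the 6 and the cancer-testis list, 18 components, 20 neighbours and resolution 0.6, giving 20 clusters. Germ cell-like cells were clustered again into 12. A name needed 3 or more markers at 1.5 times all other cells in at least 5% of cells, the largest share of its list and a marker among the 20 leading genes, a scoring rule set after the files were read. The macrophage-like cluster also passed all lymphocyte markers, and 3714 somatic cells stayed unnamed. Scrublet (scanpy 1.11.5) called 2 and 1 cells by ending, too few to have worked, and no doublets were taken out. Between the endings 27 barcode sequences are shared.

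Counts were summed per group and divided by the group's UMIs (CPM). Intervals are exact at 95% (scipy 1.17.1, numpy 2.4.6, pandas 2.3.3, Python 3.11.15, matplotlib 3.10.9). Ratios for ranks and calls used 10 CPM added, and genes needed 20 CPM in 1 step (50 CPM in 1 ending between endings). A call is a log2 ratio past 2. Counts for meiotic-like against other germ cells (6365 genes, 200 changed) were simulated as Poisson draws. There 95.2% of intervals held the true fold, 100% of genes raised 8-fold passed 2 and 0% of unchanged ones did. The intervals assume such counts, so this checks the calculation only. Variation between cells, libraries and fetuses was not simulated. Named were the 6 genes, their family genes, list genes past 2, the 3 genes most alike to each and step markers as landmarks. Other genes that stand out between the endings were named after their values were seen. Gene neighbours came from a RefSeq table. Sequences were not used here.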

Additional observations from a re-analysis of the deposited data

Results flagged for a closer look

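Germ cell-like cells without a step name also held the 6 genes. The sum over the 6 was 1164 CPM (1100–1231) in germ sub-cluster 0, 541 CPM (505–578) in sub-cluster 2 and 226 CPM (218–235) in sub-cluster 4, each above the highest upper bound of a named somatic class (121 CPM, pericyte-like). These cells enter no comparison of the report by step. Sub-cluster 0 holds 1272 cells with a median of 738 UMIs, 1260 of them ending in 1, led by HBB, OGN and collagens. It passed the meiotic markers SYCE3, MEIOB and TEX11 and the stroma markers DCN, COL1A1, COL3A1 and NR2F2. Sub-cluster 2 holds 864 shallow cells, 769 of them ending in 2. It passed the premeiotic markers REC8 and RFX6 and the meiotic markers SYCP1 and SPO11. Sub-cluster 4 holds 467 cells with a median of 21530 UMIs and markers of granulosa and stroma. The fourth unnamed germ sub-cluster, of 225 cells, stood at 109 CPM (98.6–120). PAGE1 alone stood at 400.3 CPM in sub-cluster 0, and PAGE4 at 65.6 CPM. What these cells are was not tested.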

How the results depend on the processing

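No paired analysis was possible because the table is 1 pooled sample. The median log2 ratio of the 6 genes over other named germ cells was 2.61, and moved to 3.10 with 200 to 3000 genes per cell, 3.11 at up to 10% mitochondrial UMIs, 2.87 as a mean of single-cell CPM, 2.96 thinned to 1000 UMIs, 3.64 with 1 CPM added, 3.14 in barcodes ending in 1 and 1.72 in barcodes ending in 2. Over somatic cells it was 3.47, and in the same settings 4.03, 3.73, 3.61 (within the counting interval), 3.75, 5.17, 3.76 and 3.07. Of the cancer-testis list 3 genes passed upward, or 7 with 1 CPM added. The 1 gene that passed downward became 0 with 200 to 3000 genes, at up to 10% mitochondrial UMIs, as a mean of single-cell CPM, thinned, in barcodes ending in 1 and with unnamed germ cells in the reference, and 2 with 1 CPM added and in barcodes ending in 2. The cause of these moves was not tested.

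Each gene in each setting was counted apart, with 84 values over other germ cells, 78 over somatic cells and 66 between the barcode endings. All of these values kept their direction (44, 35 and 15 moved beyond counting error). Against other germ cells and against somatic cells this direction follows from the choice of the genes. Between the endings XAGE3 ranged from 2.86 to 3.91, PAGE4 from 1.90 to 3.85 and LY6K from 0.20 to 0.66 on the log2 scale. All 6 genes were highest in meiotic-like cells also with 200 to 3000 genes per cell. The number of meiotic-like cells ranged from 663 (at up to 10% mitochondrial UMIs) to 2049 (without the cells of highest doublet score). Depth limits PAGE4 and XAGE3 outside meiosis, where 7 to 32 UMIs stand behind a pooled level, and FAM9C in mitotic-like cells, with 4. The alternatives between the endings, at 5000 UMIs and with unnamed germ cells were added after the data were seen.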
